A study of Mus musculus with 479 samples.

Results

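Wild-type mouse liver was compared with wild-type heart, kidney and lung by RNA sequencing of polyadenylated RNA. The liver libraries were taken by their labelled tissue and wild-type genotype, which gave 60 libraries, 30 from the Dchs1 line and 30 from the Fat4 line, of 240 wild-type libraries and 479 libraries in the whole series. The 180 other wild-type libraries were 30 each of heart, kidney and lung in each line. In both lines 1 allele of the named gene was targeted with VelociGene technology in the heterozygotes, which were not used here, and the wild types were littermates that carry the unaltered gene. All mice of both lines were on a C57BL/6NTac background. No treatment, age, sex or time is given for these groups. The labels do not say that libraries of a tissue came from different mice, nor which tissues came from the same mouse. The p-values therefore measure only the spread between these libraries, which may be technical. Library numbers run in blocks that each hold 1 tissue, some of them lying between blocks of another, so tissue and any handling by block cannot be told apart, and neither can line and any batch. In each pair of values below, the Dchs1 line comes first and the Fat4 line second.

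The liver makes most proteins of the blood plasma, turns ammonia into urea, handles glucose, lipids and bile acids, and chemically modifies drugs and toxins. Most of this work is done by hepatocytes, which make up most of the organ's mass and divide some of the tasks between the portal and the central end of each lobule. Kupffer cells (resident macrophages), sinusoidal endothelium, stellate cells and the bile duct cells called cholangiocytes make up the rest. Hepatocyte genes are known to be driven by a set of transcription factors that includes the HNF1, HNF4, FOXA and C/EBP families, several of which are also active in the kidney tubule.

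To show what stands upstream of genes that were high together in liver, the 250 bases before the start site are printed for 5 of them: the plasma protein genes Alb, Apob and Serpina1e, the fatty-acid carrier gene Fabp1 and the drug-metabolising enzyme gene Cyp1a2. The sequences come from RefSeq (GRCm38.p6), run 5′ to 3′ on the strand of the gene and are in lower case. Capitals mark GTTAAT, the core of the HNF1 half-site, and TATAAA, the TATA box.
Alb, chr5:90460620-90460869, plus strand: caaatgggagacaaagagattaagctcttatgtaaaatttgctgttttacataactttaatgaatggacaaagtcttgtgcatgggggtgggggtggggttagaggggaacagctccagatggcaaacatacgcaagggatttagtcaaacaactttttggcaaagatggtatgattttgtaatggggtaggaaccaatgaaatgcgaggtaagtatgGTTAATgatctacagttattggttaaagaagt
Apob, chr12:7977427-7977676, plus strand: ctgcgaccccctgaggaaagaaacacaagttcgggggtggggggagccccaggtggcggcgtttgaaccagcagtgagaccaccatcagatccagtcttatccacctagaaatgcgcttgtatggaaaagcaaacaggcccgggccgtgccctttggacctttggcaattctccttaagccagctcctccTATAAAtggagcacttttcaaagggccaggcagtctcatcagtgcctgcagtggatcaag
Serpina1e, chr12:103956898-103957147, minus strand: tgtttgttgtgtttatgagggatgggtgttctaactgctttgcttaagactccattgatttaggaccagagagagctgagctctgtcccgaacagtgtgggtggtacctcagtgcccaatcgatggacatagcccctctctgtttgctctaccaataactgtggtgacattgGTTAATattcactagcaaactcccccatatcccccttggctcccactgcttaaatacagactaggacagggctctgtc
Fabp1, chr6:71199629-71199878, plus strand: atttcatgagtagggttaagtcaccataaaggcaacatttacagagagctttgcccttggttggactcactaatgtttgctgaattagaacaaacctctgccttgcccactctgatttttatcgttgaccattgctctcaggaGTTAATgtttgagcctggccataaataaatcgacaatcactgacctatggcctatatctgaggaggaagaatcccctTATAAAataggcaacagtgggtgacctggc
Cyp1a2, chr9:57683656-57683905, minus strand: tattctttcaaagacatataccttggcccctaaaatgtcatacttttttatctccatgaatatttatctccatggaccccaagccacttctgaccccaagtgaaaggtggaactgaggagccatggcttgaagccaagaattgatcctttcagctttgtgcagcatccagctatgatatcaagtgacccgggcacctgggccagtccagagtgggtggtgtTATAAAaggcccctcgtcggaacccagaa
Alb, Serpina1e and Fabp1 each hold 1 GTTAAT, which begins at base -32, -78 and -107 from the start site. Apob, Cyp1a2 and Fabp1 each hold 1 TATAAA, at -60, -29 and -30. Both strands were searched for GTTAAT, CAAAGTCCA (HNF4), TGTTTAC (FOXA), TTGNGNAA (C/EBP, where N is any base) and TATAAA, and no other match lies in these 5 windows. Among 27025 promoters of the same length, 6.52% hold GTTAAT, 0.381% CAAAGTCCA, 3.09% TGTTTAC, 11.6% TTGNGNAA and 13% TATAAA. A match describes the letters and not a bound site.

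Liver totals ran from 16125657 to 22853358 estimated reads (median 19083896) and from 16929078 to 21836463 (median 18589746), within the 10720364 to 32282525 of all wild-type libraries. Several livers stood apart. By the correlation of their profile with the rest of their group, 2 and 4 livers were outlying. The messages of the 13 protein genes of the mitochondrial genome took 46.5% of TPM (a transcript level scaled for length and library total) in 1 of the outlying Dchs1 livers and up to 38.0% in the Fat4 livers, against medians of 18.3% and 21.1%. The acute-phase gene Saa2 stood at 12706 and 14153 TPM in 2 other Dchs1 livers, where the next highest had 298.7 TPM and the median was 31.1. The summed level of 14 kidney tubule markers was 101.5 TPM in 1 Dchs1 liver and 15.2 in 1 Fat4 liver, with the next highest livers at 0.876 and 1.03. The calls were repeated without all outlying libraries of the 4 tissues. A further repeat left out the 2 Saa2 livers and the 2 livers with kidney markers. Counts of genes called in both lines moved little, as given beside them. The count of genes that differed between the lines moved more, from 4182 to 5371 and to 3463.

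Liver differed from the other 3 tissues in a large part of the transcriptome. The levels were compared as liver minus the mean of heart, kidney and lung on the log2 scale, with edgeR's quasi-likelihood test and Benjamini-Hochberg adjustment. A gene was called at an adjusted p under 0.05 and a difference of at least 2-fold. In the Dchs1 line 2876 of 16075 genes were higher in liver (17.9%) and 5005 lower (31.1%), and in the Fat4 line 2937 of 16081 were higher (18.3%) and 4960 lower (30.8%). Over 16011 genes tested in both lines, 2708 were higher in both (16.9%) and 4726 lower in both (29.5%). Only 2 genes were called in opposite directions, Lcn2 and 4930463O16Rik, the second of which stayed under 0.5 TPM at the median in every tissue, and 824 of the 8260 genes called in either line were called in 1 line only. Across genes the log2 fold changes of the lines had a Pearson r of 0.994, as a description over genes that are not independent, with a median absolute difference of 0.14. Without the 4 livers named above, which were picked after the data were seen, 2710 genes were higher and 4744 lower in both lines, and without all outlying libraries 2693 and 4723.

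**Figure D1:**
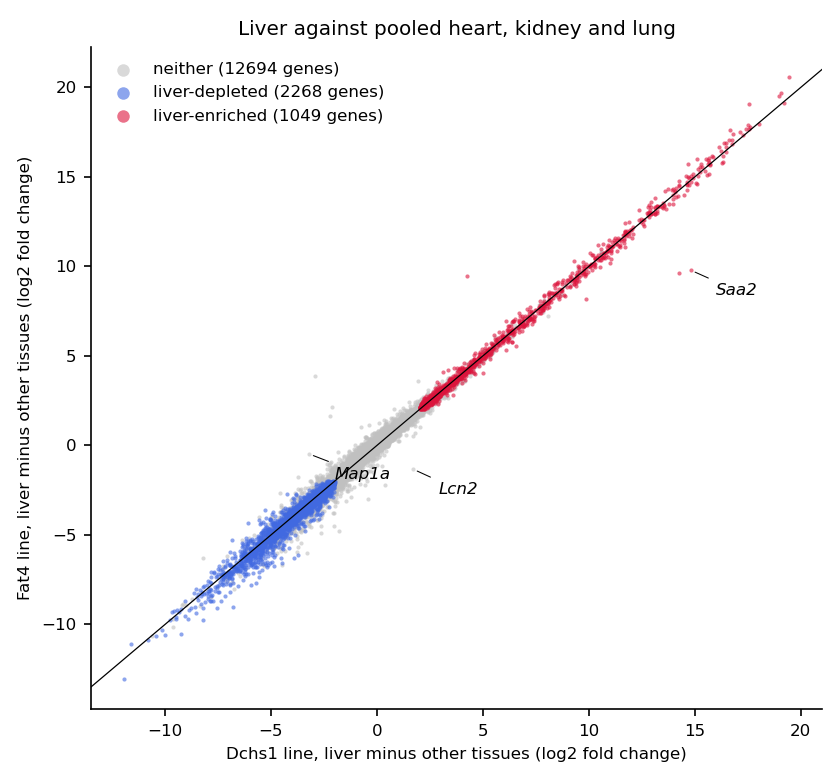
Each point is a gene tested in both lines, with its log2 fold change of liver against pooled heart, kidney and lung in the Dchs1 line (x axis) and in the Fat4 line (y axis), and the line marks equality. The 1049 liver-enriched genes (red) and 2268 liver-depleted genes (blue) lie along the line, while Saa2, Lcn2 and Map1a lie off it.

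A stricter set holds the genes that set liver apart from each of the other tissues. Liver-enriched genes were at least 4-fold higher than the pooled tissues and at least 2-fold higher than heart, kidney and lung each, with every adjusted p under 0.05, in both lines. There were 1049 of them (6.55% of 16011), and 2268 genes (14.2%) were liver-depleted by the mirrored rule. Of the enriched genes 989 were protein coding and 42 long non-coding. Their median liver level was at least 1 TPM for 1017, 10 TPM for 820, 100 TPM for 407 and 1000 TPM for 73. Within each line, every liver lay above every heart, kidney and lung library, on TMM-scaled counts, for 869 of the enriched genes. In the same way every liver lay below for 1013 of the depleted genes. Both counts ask for this in both lines. The genes were chosen by their difference in these same libraries, so both counts are a description. No share over all genes tested is given beside them. By median TPM, the next highest tissue was lung for 491 enriched genes, kidney for 379 and heart for 127. It differed between the lines for the other 52. Genes with a median of 0 in heart, kidney and lung alike, such as the Mup genes, were counted under heart, so that number is too high. Without all outlying libraries 1050 genes were enriched and 2265 depleted, and without the 4 livers named above 1045 and 2275.

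The choice of scaling bears on these counts. The TMM factors, which correct for the share of reads taken by highly expressed genes, had medians of 0.69 and 0.70 in liver, 0.79 and 0.76 in heart, 1.04 and 1.07 in kidney. Lung had the highest, 1.87 and 1.82. On TPM, which carries no such factor, liver had the highest median of the 4 tissues in both lines for 1000 of the 1049 genes and was at least 2-fold above each for 767. Among all calls in both lines 36.4% were higher in liver with TMM, against 28.4% with upper-quartile scaling, 19.1% with library totals only, 24.0% on log2(TPM + 1), 20.9% on log2(TPM + 0.1) and 28.0% with the other tissues as a single group. The median log2 difference over all tested genes was -0.09 and -0.07 with TMM, -0.35 and -0.36 with upper-quartile scaling, -0.83 and -0.81 with totals only, and -0.55 and -0.54 on log2(TPM + 1). With totals only 711 genes were enriched, all of them among the 1049, and 3194 depleted, and on log2(TPM + 1) 618 were enriched, 616 of them among the 1049, and 841 depleted, 723 of them among the 2268. Values just inside the 4-fold limit were those of Dcaf11, at a log2 fold change of 2.04 and 2.01, and 1700048O20Rik, at 2.01 and 2.03, and just outside lay Ccdc58 at 2.021 and 1.996 and Gtf2e1 at 1.996 and 2.025, each short of 2 in 1 line.

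The 4 hepatocyte markers matched the tissue label in all 60 livers. Alb (gene 11657, chromosome 5, 90460870 to 90476602, GRCm38.p6), which encodes serum albumin, had lowest, median and highest liver levels of 38013, 51316 and 64226 TPM, and of 37599, 47885 and 63224 TPM. Kidney medians were 2.46 and 3.29 TPM, and no library of the other tissues passed 5.26 TPM. The 90 other libraries of a line held 2405 and 2640 Alb reads in all, against 36601840 and 33284223 in its 30 livers. The log2 difference was 17.43 ± 0.170 (SE) and 17.67 ± 0.0989, at an adjusted p of 7.01e-118 and 1.09e-146 by edgeR's quasi-likelihood test.

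Cps1, the mitochondrial enzyme that brings ammonia into the urea cycle, stood at 577, 1331 and 3742 TPM and at 1171, 1647 and 2787 TPM in liver, with no other library above 0.0574 TPM. Its log2 differences were 17.57 ± 0.121 and 17.69 ± 0.0820. Cyp1a2, which oxidises caffeine and aromatic amines, had 96.4, 185 and 266 TPM and 123, 209 and 313 TPM, with 15 and 12 reads in all 90 other libraries and log2 differences of 14.91 and 15.14. Apob, the scaffold protein of very-low-density lipoprotein, had 689, 1088 and 1441 TPM and 968, 1333 and 1712 TPM. Its kidney medians were 14.6 and 16.2 TPM, and its log2 difference was 12.36 ± 0.116 and 13.14 ± 0.0919. For each of the 4 genes every liver lay above every other library.

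**Figure D2:**
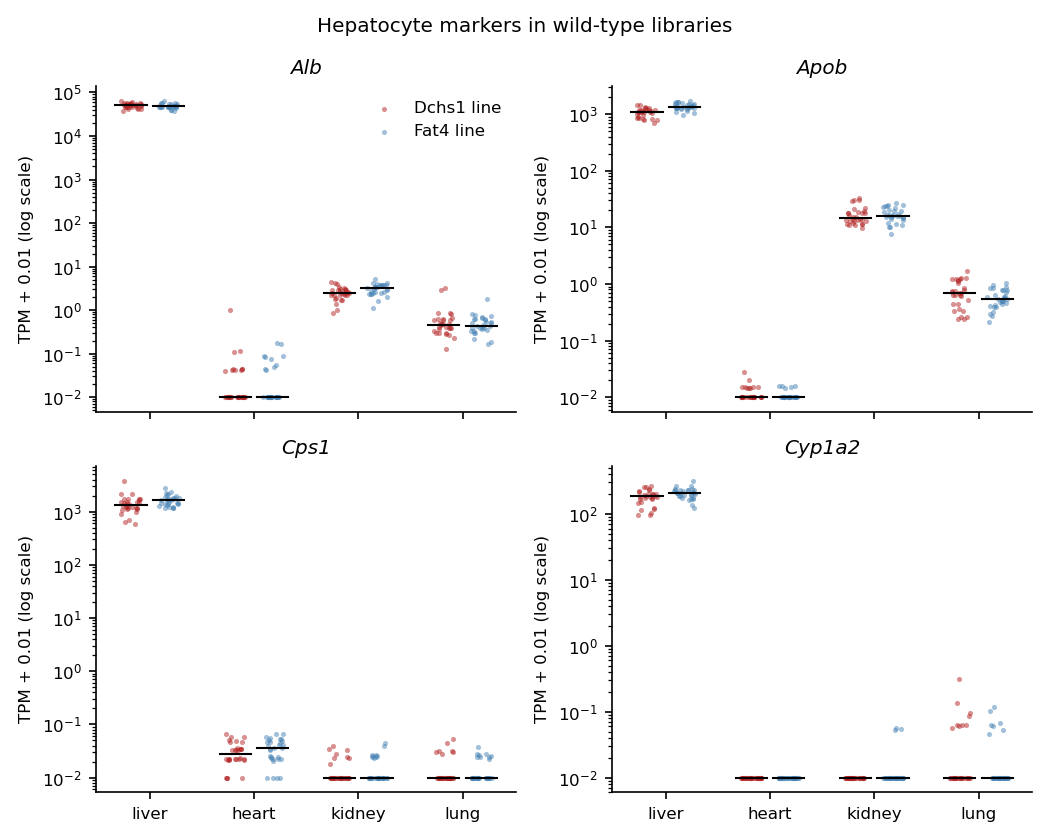
Each point is 1 wild-type library, with TPM + 0.01 on a log axis, by tissue and line, and bars mark medians. All 60 livers sit far above the other 180 libraries for Alb, Apob, Cps1 and Cyp1a2, and Apob is next highest in kidney.

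The counts of each gene list below stand beside 16.9% higher, 29.5% lower and 6.55% enriched over all genes tested in both lines. These shares hold with TMM, where 2708 genes were higher and 4726 lower. List counts under other settings stand beside other totals. With library totals only 1577 genes were higher and 6671 lower in both lines. On log2(TPM + 1) 1357 were higher, 4300 lower and 618 enriched. With the other tissues as a single group 2165 were higher and 5571 lower. Among secreted plasma proteins, all 28 tested carrier and transport proteins and all 18 apolipoprotein and lipoprotein assembly genes were liver-enriched in both lines. Their median log2 differences were 11.78 and 11.81, and 11.06 and 10.83, beside -0.09 and -0.07 over all genes tested. Apoe, which clears lipoprotein remnants, was the most abundant of the second group, at 10542, 17154 and 21238 TPM and 12521, 15953 and 18867 TPM. It was also well above 0 elsewhere, with lung medians of 620 and 617 TPM, and its log2 difference was 6.83 ± 0.0603 and 6.66 ± 0.0440. Apoa1, the main protein of high-density lipoprotein, was far more restricted, at medians of 16092 and 14188 TPM in liver and at most 3.01 TPM in any other library. Ttr, the carrier of thyroid hormone and retinol-binding protein, had liver medians of 9606 and 8594 TPM and kidney medians of 173 and 187 TPM. The protease inhibitor genes Serpina3k, at medians of 13832 and 13292 TPM, and Serpina1e, at 11362 and 9429 TPM, did not pass 1.72 and 0.716 TPM in any other library.

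Of 26 coagulation genes, 24 were higher in liver in both lines, 22 of them enriched, and 2 were lower. The fibrinogen chains led the group, and Fgb had 3504, 4096 and 5666 TPM and 3012, 3725 and 7184 TPM, with no other library above 5.27 TPM. The 2 exceptions were F3, which encodes tissue factor and fell by 2.76 and 2.88 on the log2 scale, and Vwf, which endothelium makes and which fell by 2.24 and 2.28. Vwf was highest in lung, at medians of 84.0 and 102 TPM, and stood at 1.23 and 1.40 TPM in liver. Complement followed the same pattern, with 23 of 24 genes higher, 19 enriched and 1 lower. C3, the hub of the cascade, had liver medians of 2221 and 2435 TPM and lung medians of 330 and 316 TPM, a log2 difference of 6.28 ± 0.0798 and 6.33 ± 0.0756 from the pooled tissues. Serping1, which inhibits the first component, was less set apart, at 653 and 620 TPM in liver and 453 and 447 TPM in lung. The lower gene was Cfd, a protease that fat cells secrete, at 0.0917 and 0.0976 TPM in liver and 45.9 and 51.7 TPM in kidney.

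All 21 genes of the list of liver hormones and their receptors were higher and 16 were enriched. Hamp, which encodes the iron hormone hepcidin, had 441, 1750 and 4209 TPM and 596, 1265 and 4836 TPM in liver, with lung medians of 8.92 and 9.10 TPM. Agt, the precursor of angiotensin, had medians of 527 and 468 TPM against kidney medians of 29.4 and 33.4 TPM. The growth hormone receptor gene Ghr was called higher on the mean of the other tissues, by 1.53 and 1.65, but kidney lay within its range, at 255 and 256 TPM against 179 and 195 TPM in liver. With library totals only its differences were 0.80 and 0.91, short of the 2-fold limit. All 20 tested major urinary protein genes (Mup), which encode pheromone carriers that mice excrete, were enriched. Their median log2 differences were 15.63 and 15.64. Mup20 had 7574, 12980 and 16898 TPM and 7659, 11413 and 15183 TPM, and Mup3 had medians of 16651 and 15750 TPM. The other 90 libraries of a line held 21 and 14 Mup20 reads in all. Reads of near-identical Mup genes can be divided wrongly between them, so single members are uncertain.

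For metabolism, all 8 urea cycle genes were liver-enriched and all 34 genes of amino acid breakdown were higher, 27 of them enriched. Arg1, which releases urea, had 936, 1823 and 3233 TPM and 1225, 1722 and 2651 TPM, with lung next at medians of 3.10 and 3.44 TPM. Ass1, the enzyme that joins citrulline and aspartate, was shared with kidney, where its medians were 1282 and 1477 TPM against 2412 and 2467 TPM in liver. Its log2 difference from kidney alone was 1.32 ± 0.192 and 1.25 ± 0.114, and 27 and 30 of the 30 livers lay above all 90 other libraries. Bhmt, which makes methionine from homocysteine, had medians of 6820 and 6415 TPM in liver and 2.96 and 2.80 TPM in kidney.

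Of 22 genes of glucose and glycogen handling 14 were higher, 7 lower and 1 not called, and 8 were enriched. G6pc, the phosphatase that releases free glucose, had liver medians of 328 and 294 TPM and kidney medians of 131 and 157 TPM. Pck1, an early enzyme of glucose synthesis from lactate, was about as high in kidney as in liver, at 2316 and 2507 TPM against 2112 and 2333 TPM. The lower genes were Hk1, Hk2, Pkm, Pfkm, Pygm, Gys1 and Slc2a4. Pkm, the muscle-type pyruvate kinase, had 5.07, 7.12 and 9.44 TPM and 4.40, 6.73 and 10.4 TPM in liver against heart medians of 304 and 303 TPM, and Pygm, the muscle glycogen phosphorylase, had 0.334 and 0.368 TPM against 347 and 362 TPM.

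All 24 genes of bile acid synthesis and transport were higher and 20 were enriched. Cyp8b1, which sets the cholic acid share, had 322, 702 and 994 TPM and 403, 744 and 1054 TPM, with at most 0.533 TPM in any other library. Slc27a2, a fatty acyl and bile acid ligase, had the higher medians in kidney, at 1505 and 1626 TPM in liver and 2046 and 2179 TPM in kidney. Of 38 cytochromes P450 of xenobiotic metabolism 33 were higher, 31 enriched and 2 lower. Cyp2e1, which oxidises ethanol, had 3843, 6773 and 8215 TPM and 4103, 7295 and 9208 TPM in liver and kidney medians of 1118 and 1204 TPM, a log2 difference from kidney alone of 2.99 ± 0.195 and 3.05 ± 0.179. Cyp2f2 ran the other way between liver and lung, at 901 and 874 TPM against 3762 and 3461 TPM, and its call in the pooled contrast (5.34 and 4.91) was lost when the other tissues were a single group (0.98 and 1.06). The lower genes Cyp1b1 and Cyp2s1 had liver medians of 0.304 and 0.406 TPM, and of 0.191 and 0.182 TPM. Of 40 conjugating enzymes 38 were higher and 21 enriched, led by the glutathione transferase Gstp1 at 2454 and 2247 TPM. Members of the Cyp2c, Cyp3a, Ugt, Serpina1 and Gst families share sequence, and the same caution holds for their single values.

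Of 19 genes of cholesterol synthesis 14 were higher, 6 of them enriched, none was lower and 5 were not called. With library totals only, and on log2(TPM + 1), 7 were higher and 1 was lower. Msmo1, a methyl sterol oxidase, met the enriched rule on scaled counts although its TPM was lower in liver (35.4 and 34.7) than in lung (45 and 46.5). Of 28 genes of ketone bodies and peroxisomal lipid oxidation 23 were higher, 14 enriched and 4 lower. Oxct1, which other organs need to burn ketone bodies, had 1.15, 1.81 and 2.88 TPM and 0.962, 1.68 and 2.57 TPM in liver, and kidney medians of 404 and 409 TPM, and fell by 5.97 and 6.09 on the log2 scale. The liver fatty-acid carrier Fabp1 stood at 9916 and 8268 TPM, while its heart counterpart Fabp3 had a median of 0 in liver and 4461 and 4484 TPM in heart.

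Transcription factors of hepatocytes were in part shared with the other tissues. Of 45 listed factors 27 were higher, 13 enriched, 2 lower (Esrrg and Cux2) and 16 not called, and 5 were lower with library totals only. Hnf4a, a central regulator of hepatocyte genes, had 148, 231 and 343 TPM and 146, 276 and 387 TPM in liver and kidney medians of 196 and 203 TPM, and was at most 0.136 TPM in heart and lung. Its log2 difference from kidney alone was 0.66 ± 0.0608 and 0.89 ± 0.0460, under the 2-fold limit. Creb3l3, a membrane-bound factor of the fasting response, and Nr1i3, the receptor CAR that induces drug metabolism, were enriched. Creb3l3 had medians of 204 and 199 TPM against at most 6.40 TPM in any other library, and Nr1i3 had 151 and 170 TPM against at most 0.471 TPM. Rxra, the partner of many nuclear receptors, was present in every tissue, at 121 and 128 TPM in liver and 30.9 and 35.1 TPM in kidney.

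Both ends of the lobule were represented. Of 24 pericentral and 24 periportal hepatocyte markers, 22 of each list were higher and 16 of each enriched, and none was lower. Bulk RNA holds all cells of the organ, so fewer cells of a type and less RNA per cell cannot be told apart here. Aldh1a1, a pericentral retinal dehydrogenase, was higher in lung, at 1449 and 1372 TPM against 693 and 736 TPM in liver. Oat, which degrades ornithine near the central vein, had liver medians of 641 and 765 TPM, the lung medians being 214 and 195 TPM.

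Markers of the other liver cells differed from list to list. Of 16 Kupffer cell markers 12 were higher, 7 of them enriched, and none was lower, and on log2(TPM + 1) 8 were higher and 2 lower. Their summed level in liver had medians of 480.3 and 491.3 TPM, a little under the 506.5 and 508.5 TPM of lung. Clec4f, a lectin of mouse Kupffer cells, had 19.4, 49.2 and 68.7 TPM and 27.3, 45.3 and 67.4 TPM, with at most 0.299 TPM in any other library, a log2 difference of 11.16 ± 0.0866 and 11.47 ± 0.0837. Of 19 sinusoidal endothelial markers 13 were higher, 8 enriched and 2 lower, and 4 were enriched on log2(TPM + 1). Their sums had medians of 343.3 and 352.1 TPM in liver and 977.5 and 1040 TPM in lung. Clec4g, a lectin of these vessels, had medians of 47.8 and 42.2 TPM and at most 1.99 TPM elsewhere. Lyve1, the hyaluronan receptor also known from lymphatics, had 280 and 321 TPM in lung against 17.9 and 19.1 TPM in liver. It was called higher on the mean of the logs (1.38 and 1.37), and the sign turned when the other tissues were a single group (-0.76 and -0.95). The general endothelial genes Eng and Kdr fell by 1.22 and 1.38, and by 1.21 and 1.02.

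Of 17 stellate cell markers 11 were higher, 6 enriched and 2 lower, and on log2(TPM + 1) 6 were higher and 3 lower. Their sums had medians of 322.7 and 332.8 TPM in liver and 1376 and 1324 TPM in heart. Colec10, a collectin, had 9.88 and 12.9 TPM in liver and at most 0.268 TPM elsewhere, while Des, the filament protein desmin, had 1.78 and 1.49 TPM against heart medians of 786 and 759 TPM. Cholangiocyte markers went the other way, with 3 of 12 higher, 1 enriched (Sox9) and 7 lower. Krt19, a keratin of bile ducts and other epithelia, had 0.819 and 0.721 TPM in liver against lung medians of 272 and 236 TPM, and Epcam had 0.616 and 0.652 TPM against 68.3 and 64.7 TPM. Pkhd1, also called higher, had kidney medians of 7.09 and 9.10 TPM, above its liver medians of 0.470 and 0.566 TPM. It turned to lower when the other tissues were a single group.

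Markers of other tissues and of blood were mostly lower or not called, and some were well above 0 in liver. Of 14 cardiomyocyte markers 13 were lower and 1, Csrp3, was called higher. Csrp3, a muscle LIM protein, had 12.6, 40.0 and 67.5 TPM and 11.3, 35.9 and 48.7 TPM in liver, far under heart at 971 and 1009 TPM but above kidney and lung, and it made up nearly all of the summed cardiomyocyte level of 41.6 and 37.1 TPM. With the other tissues as a single group its difference was -3.06 and -3.35. Of 14 kidney tubule markers 9 were lower, none was higher, and 12 had a liver median of 0. Of 14 lung epithelial markers 9 were lower and none higher, and their summed liver level of 121 and 101 TPM was mostly Hopx (74.7 and 57.7 TPM) and Lyz2 (40.4 and 37.4 TPM), a lysozyme of macrophages. Of 9 adipocyte markers 6 were lower and 2 higher. The defining fat genes Adipoq and Plin1 had liver medians of 0, and Car3, an abundant carbonic anhydrase of both fat and hepatocytes, had 309 and 398 TPM. Fabp2, on the list of gallbladder and intestine markers, was enriched in liver, at 117, 235 and 390 TPM and 104, 227 and 377 TPM, while the gut marker Vil1 had 0.0401 and 0.0554 TPM. Of 8 erythroid markers 6 were lower and none higher, and their summed level in liver had medians of 1094 and 990 TPM, against 18811 and 17130 TPM in lung. Of 13 T, NK and B cell markers 1 was lower and none higher. With library totals only, under which 6671 genes were lower in both lines against 4726 with TMM, 8 of the 13 markers were lower. Their summed level had medians of 7.57 and 7.52 TPM in liver and 225.9 and 226.1 TPM in lung. Heart had 4.20 and 3.93 TPM, and kidney 8.56 and 7.66 TPM. With the other tissues as a single group all 14 kidney and all 14 lung markers were lower.

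Of the liver-depleted genes with at least 10 TPM in each other tissue, Fabp3 and Car4, a membrane carbonic anhydrase of capillaries, fell most, by 10.79 and 10.90 and by 10.44 and 10.67. The livers of a line held 20 and 19 reads of Fabp3 and 17 and 14 of Car4 in all, so these sizes rest on few reads. Car4 had a median of 0 in liver, 33.8 and 33.0 TPM in heart, 86.1 and 99.3 in kidney and 249 and 244 in lung. Ldhb, the heart-type lactate dehydrogenase, had 1.20, 2.13 and 5.40 TPM and 1.30, 1.94 and 2.98 TPM against medians of at least 254 TPM in each other tissue. Gpx3, the plasma glutathione peroxidase made by kidney, had 7.46 and 6.22 TPM in liver and 16294 and 17847 TPM in kidney. Acss1, a mitochondrial acetate-activating enzyme, had 0.114 and 0.136 TPM against 130 and 140 TPM in heart.

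Structural genes went both ways, as did all genes tested in both lines, of which 16.9% were higher and 29.5% lower. Of 25 collagen and matrix genes 20 were lower and 3 higher, 2 of them enriched. Sparc, a matrix glycoprotein, had 25.0 and 23.3 TPM in liver against 1070 and 1178 TPM in lung. The enriched members Vtn and Fn1 encode vitronectin and fibronectin, which also circulate in plasma, at 1866 and 1716 TPM and at 306 and 327 TPM. Of 20 genes of the actin cytoskeleton 10 were lower, 1 was higher (Cald1) and 9 were not called. Of 18 junction and filament genes 12 were higher, 7 enriched and 3 lower, led by the gap junction gene Gjb1 at 373 and 379 TPM in liver and 30.7 and 38.9 TPM in kidney. The 3 lower genes, Cldn5, Cdh5 and Gja1, are known from endothelium and heart. Of 21 nuclear-encoded respiratory chain genes 3 were lower, Cox6a2, Cox7a1 and Cox8b, which encode the muscle forms of their subunits, and 1 was higher. None of 20 ribosomal protein genes was called in the pooled contrast on scaled counts. Their summed TPM still differed by tissue, with medians of 7212 and 6249 in liver and 21566 and 19976.5 in lung. Heart had 5172 and 5034, and kidney 7531 and 7987. Of 26 genes of folding and export in the endoplasmic reticulum 17 were higher and 7 enriched, and 10 were higher with library totals only. P4hb, a disulfide isomerase, had 590 and 595 TPM in liver against lung medians of 336 and 318 TPM.

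**Figure D3:**
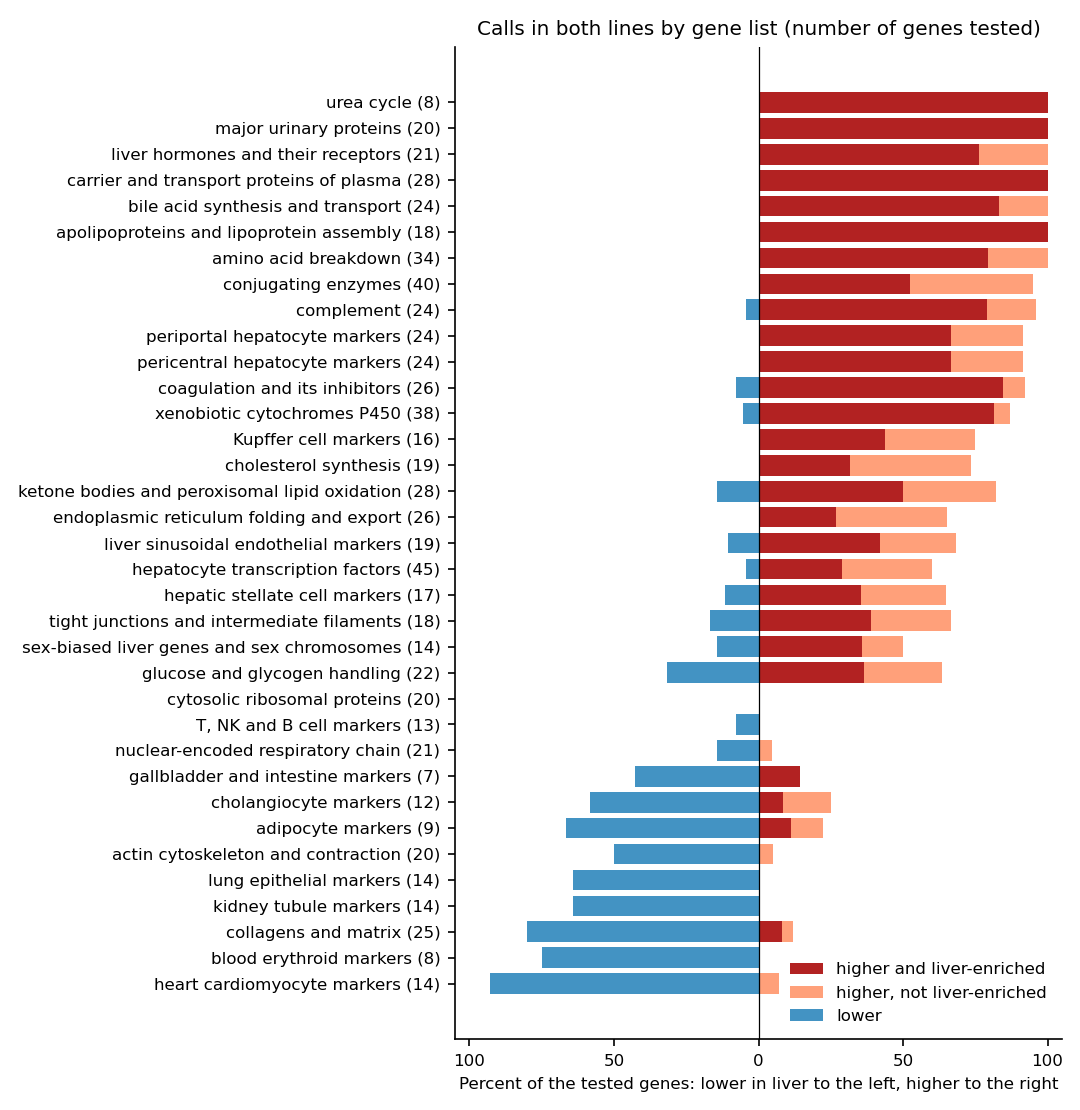
Bars give, for each gene list, the percent of tested genes called lower (left, blue) or higher in liver (right, light red, and dark red where liver-enriched) in both lines, with the number tested in brackets. Urea cycle, carrier protein, apolipoprotein and Mup genes are all enriched, and heart, erythroid and matrix lists lean left.

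Many genes that were higher in liver were shared with another organ. Of 1659 genes higher in both lines but not enriched, 760 had a kidney level within 2-fold of liver or above it, 311 a lung level and 296 a heart level. Kidney exceeded liver by at least 2-fold for 84, lung for 30 and heart for 11. Among the most abundant of the shared genes were Ftl1 (ferritin light chain), Eef1a1, Pck1, Gpx1, Slc27a2, Cyb5a and Prdx1. Gpx1, a peroxide-reducing selenoenzyme, had 2033 and 1707 TPM in liver and 1717 and 1797 TPM in kidney. Eef1a1, a translation elongation factor, had 3668 and 3607 TPM in liver but 5725 and 5421 TPM in lung, and was called higher on scaled counts only: on log2(TPM + 1) its difference was 0.87 and 0.81.

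Levels varied between livers far more for some enriched genes than for others. Over enriched genes of at least 10 TPM the median SD of log2 scaled counts among livers was 0.27 and 0.22, against 0.19 and 0.16 for the other 4371 genes at that level. The most variable were Mup17, Gm44805, Mup8, Hsd3b5, Saa2, Mup16, Mup12 and Car3. Mup7 had 873, 11928 and 16568 TPM and 404, 9330 and 13544 TPM. Hsd3b5, a steroid dehydrogenase of male mouse liver, ran from 1.83 to 187 TPM (median 23.4) and from 2.03 to 103 TPM (median 20.5). Each liver still lay above every library of the other tissues of its line. Car3 ran from 5.01 to 1240 TPM and from 17.0 to 1087 TPM. The steadiest were Masp2, F12, Lcat, 1300017J02Rik, Tmem183a, Phyh, Serpinc1 and Gstz1. Lcat, the enzyme that esterifies plasma cholesterol, had 229, 395 and 484 TPM and 286, 388 and 439 TPM, an SD of 0.10 and 0.08 on the log2 scale. Mup17, Mup16 and Mup12 were assigned 0 reads in all 90 other libraries of both lines. Against a floor of 3 reads over those libraries, Mup17 was 228047-fold and 197206-fold higher in liver. Mup12 was 61548-fold and 57471-fold higher, and Mup16 43701-fold and 34743-fold. These sizes rest on how reads were assigned and are not lower bounds. Reads of near-identical Mup genes can be divided wrongly between them, and some of those libraries held reads of other Mup genes. The same caution holds for the spread of single Mup genes between livers. Of the livers themselves, all had Ddx3y, a Y-linked gene, at 13.4 to 42.8 TPM, and Xist, which females express, at 0.0489 TPM or less.

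**Figure D4:**
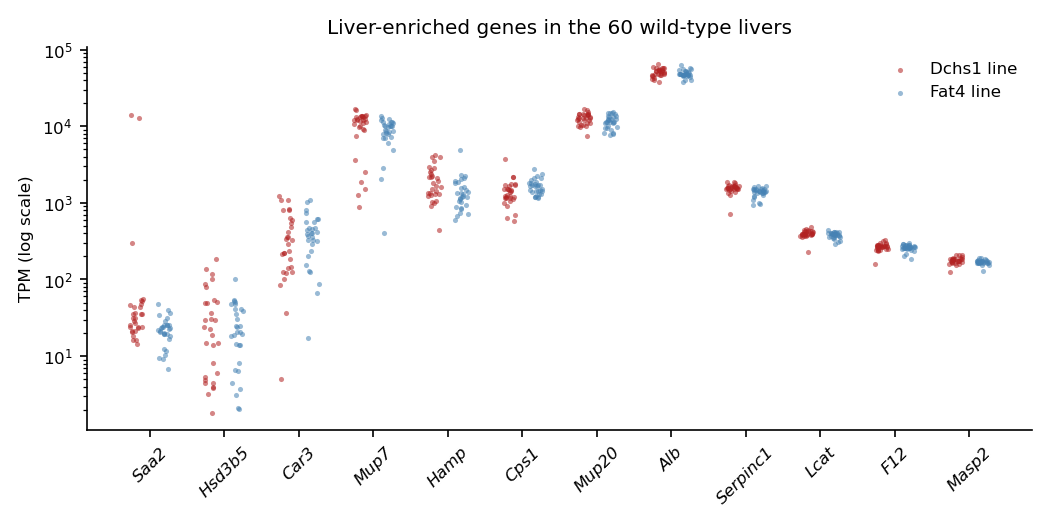
Each point is 1 of the 60 wild-type livers, with TPM on a log axis, for 12 liver-enriched genes by line. Saa2 has 2 livers at 12706 and 14153 TPM, Hsd3b5 and Car3 spread widely, and Serpinc1, Lcat, F12 and Masp2 lie close together.

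The enriched genes filled a large part of the liver's messenger pool. They took 33.9% to 54.1% of TPM in Dchs1 livers (median 51.1%) and 38.6% to 51.0% in Fat4 livers (median 48.4%), and at most 0.858% in heart, 3.66% in kidney and 3.30% in lung. As the genes were chosen by their level, this is a description. The livers with the lowest shares were those with the highest mitochondrial share, and of TPM outside the 13 mitochondrial genes the enriched genes took 60.1% to 64.5% and 59.8% to 63.6%. Alb alone made up a median of 5.13% and 4.79% of TPM and the Mup genes 5.18% and 4.57%.

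The 10 most abundant genes of a library took less of the pool in liver than in heart or kidney. Their share was 24.5% ± 4.19 and 25.6% ± 3.60 (SD, n = 30) in liver, against 55.4% ± 1.91 and 55.4% ± 1.57 in heart and 48.5% ± 3.62 and 44.8% ± 2.41 in kidney. The adjusted p was 2.4e-05 for each of these 4 differences by a 2-sided permutation test, and 2e-05 is the smallest raw p that 100000 resamples give. Lung was close to liver, at 24.7% ± 3.52 and 23.8% ± 2.35, with an adjusted p of 0.862 and 0.0280 in the same test. Over the 100 most abundant genes, however, the share in liver lay 16.19 and 17.83 points above lung with no overlap of the libraries, at an adjusted p of 2.1e-05 in each line by the same permutation test. Beside this, mitochondrial messages made up a median of 10 of the top 10 in heart, 9 in kidney, 5 and 7 in liver, with 5 and 6 in lung libraries, and their share of TPM was 60.1% and 59.5% in heart, 47.8% and 43.6% in kidney, with lung at 8.72% and 11%. Fewer genes reached 1 TPM in liver, 10882 ± 195 and 10999 ± 141, than in heart (11425 ± 155 and 11439 ± 153), kidney (12393 ± 192 and 12571 ± 121) or lung (14246 ± 203 and 14277 ± 136), with an adjusted p of 2.4e-05 for each by the same permutation test. At 10 TPM the order of liver and heart turned, with 675.2 and 875.53 more genes in liver.

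**Figure D5:**
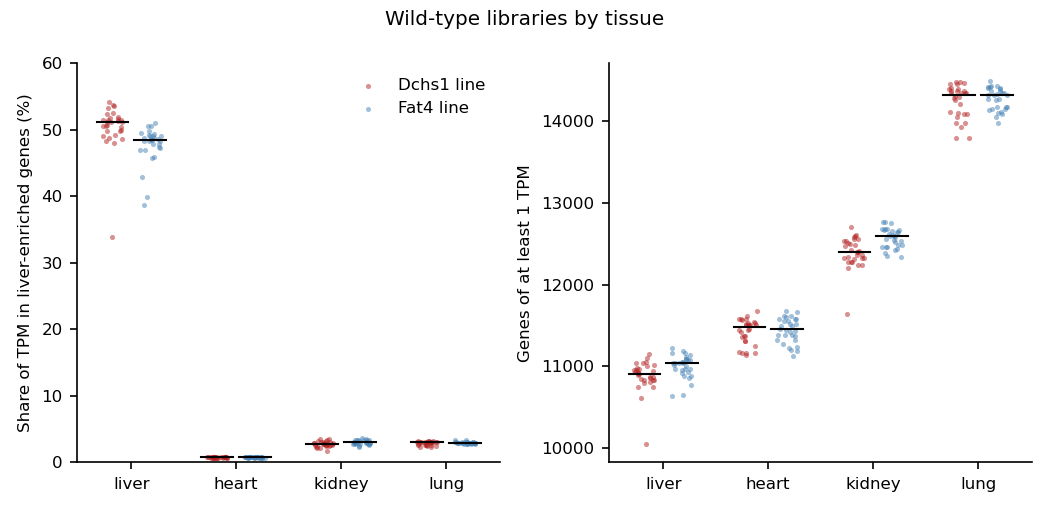
Each point is 1 wild-type library, by tissue and line, with the percent of TPM in the liver-enriched genes on the left and the number of genes of at least 1 TPM on the right, and bars mark medians. Livers lie at 33.9% to 54.1% and all other libraries at or under 3.66%, and liver has the fewest genes of the 4 tissues at the median.

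Many enriched genes lay next to each other on the chromosomes. Of 1045 with a position in the reference, 402 (38.5%) had another enriched gene as a direct neighbour among the tested genes, against 10.2% of 14934 other tested genes. There were 10 runs of 5 or more, which hold 79 genes. The longest were 20 Mup genes on chromosome 4 from 59956804 to 62150841, 12 Cyp2c genes on chromosome 19 from 39006940 to 40187286, and 8 Cyp3a genes on chromosome 5 from 145345149 to 146114978 (GRCm38.p6). Unlike these families, the run of 7 on chromosome 6 from 124396816 to 124636085 joins the peroxisomal receptor Pex5 and Clstn3 to the complement proteases C1rl, C1ra, C1s1, C1rb and C1s2. The apolipoprotein run on chromosome 7, from 19671579 to 19701310, holds Gm44805, Apoc2, Apoc4, Apoc1 and Apoe. Neighbours that are copies of each other can share reads, so a run is not a count of independent genes.

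The size of the liver difference itself varied with the line. It differed between the lines for 4182 of 16464 genes (25.4%) at an adjusted p under 0.05, by edgeR's quasi-likelihood test of the interaction over all 240 libraries, but the median size of these differences was 0.22 on the log2 scale and 77 passed 2-fold. Among the 1049 enriched genes 142 differed and 3 passed 2-fold. These were Mug1, a protease inhibitor of the alpha-macroglobulin family (19.43 and 20.57), Cyp3a11, a drug-metabolising P450 (17.53 and 19.05), and 1 gene whose identifier matched no symbol. Mug1 had 24 and 7 reads, and Cyp3a11 54 and 20 reads, in all 90 other libraries of a line. Lcn2, an iron-binding acute-phase protein, had 4.22, 9.60 and 964 TPM and 2.67, 6.33 and 14.7 TPM in liver, and log2 differences of 1.72 and -1.34. Its 2 highest livers, at 572 and 964 TPM, were the 2 with high Saa2. Without the 4 livers named above the Dchs1 value was -0.79, and the line difference fell from 3.06 to 0.52. Saa2 itself went from 14.84 to 10.29 in the Dchs1 line, beside 9.77 in the Fat4 line. Although enriched, Saa2 was not among the 3 enriched genes called above for a line difference over 2-fold. Map1a, a microtubule protein gene, had liver medians of 0.0661 and 0.0754 TPM and log2 differences of -3.19 and -0.49. Its liver medians were near 0 and close in the 2 lines, and what set its log2 differences apart was not tested. The count of genes with a line difference was 3463 without the 4 livers and 5371 without all outlying libraries.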

How the data were processed

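The members, gene lists and tests were chosen with earlier results of these data known. RNA was extracted, DNase-treated and selected for poly(A) before strand-specific libraries were sequenced as single reads on an Illumina HiSeq, per the labels' protocols, whose stated read lengths conflict. Per the submitters' processing notes, bcl2fastq 2.17 and FastQC were used with the build GRCm38. Which aligner and counter produced the values was not given in the sources used here. Each line has a table of estimated counts and one of TPM per gene, as deposited, with 15.35% and 15.57% of the count values not whole. These were rounded to whole numbers before the tests. Of 24475 gene identifiers 24375 matched a symbol in the RefSeq table of GRCm38.p6.

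The 240 wild-type libraries were grouped by line and tissue from their labels. edgeR 4.0.16 (R 4.3.3) was run within each line with TMM scaling, its filter on low counts (minimum count 10, minimum total 15), 4 tissue means, a quasi-likelihood test of liver minus the mean of the other tissues and of liver minus each, and Benjamini-Hochberg adjustment. The SE is the size of the log2 difference over the square root of F. The interaction was fitted over both lines. Per-library measures were compared by permutation with SciPy 1.17.1. Simulated data were drawn from a mean profile shared by all tissues, with 200 genes changed in liver, as many up as down. In each line 100 of 100 genes changed 4-fold were called, over 15707 and 15658 genes, and 0 unchanged genes were called at 2-fold. By adjusted p alone, unchanged genes made up 2.4% and 4.3% of the calls. The real tissues differ in far more genes, so the simulation cannot show how scaling acts on them. No libraries shared identical counts, and the lowest chi-square per gene between libraries of a group was 3.48. With 16125657 to 22853358 reads per liver, counting error is small for all but the lowest genes.

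Genes named in the text follow a rule: the 4 markers; the most abundant and the most different enriched genes; the depleted genes with the largest fall; up to 4 called members of each list in its main direction and up to 3 in the other; the genes with the smallest p between lines; the steadiest and most variable enriched genes; and the most abundant genes shared with another tissue. The genes just inside and outside the 4-fold limit, the genes of the neighbour runs, the gene called in opposite directions beside Lcn2, and Apoc2, Apoc4, C1ra, C1s1, Ddx3y, Gys1, Hk1, Hk2, Hopx, Slc2a4 and Xist fall outside it and were chosen after their values were seen. Alternatives were other scalings, DESeq2 1.42.0, no filter, limma 3.58.1 on log2(TPM + 1) and log2(TPM + 0.1) for genes of at least 1 TPM in 20 libraries, the other tissues as a single group, the longest stretch of library numbers, and leaving out libraries. Heterozygous libraries were not analysed here. Values of a few genes that the rule names are not reported here.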

Additional observations from a re-analysis of the deposited data

Results flagged for a closer look

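The difference between liver and the other tissues varied with the line for 4182 genes, by edgeR's quasi-likelihood test of the interaction with Benjamini-Hochberg adjustment, and the genes named in the report that did so are given here as the Dchs1 value minus the Fat4 value on the log2 scale. Among the marker, secreted and matrix genes the values were -0.75 for Apob, -1.04 for Mug1, 0.16 for Serping1, 0.36 for Masp2 and 0.32 for Vtn. Among metabolic genes they were -1.42 for Cyp3a11, 0.19 for Gpx1, 0.42 for Gpx3, 0.13 for Gstz1 and 0.23 for Pkm. Among the rest they were -0.27 for Cald1, 0.16 for Eng, 0.28 for Hopx, -0.48 for the Y-linked gene Ddx3y, -2.70 for Map1a and -4.25 for 4930463O16Rik. The last of these stayed under 0.5 TPM at the median in every tissue. The value for Lcn2 was 3.06, and 0.52 without the 4 livers that stood apart.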

How the results depend on the processing

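No paired analysis was possible because the labels give every library a number of its own. With library totals only, 1652 and 1661 genes were higher in the Dchs1 and the Fat4 line and 1577 in both. On log2(TPM + 1) these were 1418, 1420 and 1357, with 618 enriched and 841 depleted, on log2(TPM + 0.1) 1643, 1665 and 1571, and on log2(TPM + 1) without a filter 1420, 1425 and 1361, with 618 enriched and 841 depleted. With no fold limit 6617 genes were higher and 7301 lower in both lines, and at 8-fold over the pooled tissues and 4-fold over each, 644 were enriched and 1154 depleted. Over the 100 most abundant genes the Dchs1 share of TPM was 16.19 points above lung, and at 10 TPM liver had 675.2 and 875.53 more genes than heart, which turns both signs. On log2(TPM + 1), with and without the filter, Pkhd1 turned to -0.51 and -0.52, and Lcn2 in the Dchs1 line was -1.08, also with the smaller pseudocount. With the other tissues as a single group Lyve1 was -0.76 and -0.95, Pkhd1 -1.97 and -2.01, Csrp3 -3.06 and -3.35, and Lcn2 -0.07 in the Dchs1 line. Without the 4 livers that stood apart, an alternative added after the data were seen, Lcn2 was -0.79. The single group averages levels and not logs, and the cause of the other changes was not tested. Of the values for named genes, 356 kept direction and call with library totals only, 21 lost the call and 3 gained it. Of the 1049 enriched genes 994 remained with DESeq2 size factors, 997 with DESeq2, 915 with upper-quartile scaling and 1042 without the 4 livers. Read depth limits genes near 0 in liver or outside it, whose fold changes depend on a few reads.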
